A study of Mus musculus with 20 samples.

Results

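The Serpina1 paralogues of the mouse, which encode alpha-1 antitrypsin and its close relatives, were followed in whole-kidney RNA sequencing of 20 mice. The members were the 6 genes with the symbols Serpina1a, Serpina1b, Serpina1c, Serpina1d, Serpina1e and Serpina1f, of 47069 Ensembl genes in the count table, and all 6 passed the filter on low counts. They were singled out because Serpina1a had been seen higher under anti-miR-21 than under the ACE inhibitor, so that comparison is described here without a test. Tests under either treatment of Serpina1a, of a sum that includes it, or of shares of that sum use values that this choice drew on. They are not independent of it. All mice were of mixed 129SJ and C57Bl/6J background and were killed at 15 weeks of age. The 5 WT mice were untreated. The other 15 mice were Col4a3-/-, a model of Alport nephropathy in which a collagen chain of the glomerular basement membrane is missing from every tissue, and were treated from 5 weeks of age. The 6 Veh mice received PBS under the skin once weekly. The 6 Anti-miR-21 mice received lademirsen, an oligonucleotide directed against the microRNA miR-21, at 50 mg/kg by the same route and schedule. The 3 ACEi mice received ramipril, an inhibitor of angiotensin-converting enzyme, at 11 mg/L in the drinking water (a deposited library table gives 4 mg/kg for the same mice), together with the same weekly PBS injections as Veh.

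Alpha-1 antitrypsin is a serine protease inhibitor, or serpin. It presents a flexible reactive centre loop as bait, and a protease that cuts the loop is trapped in a covalent complex. The liver makes most of the protein found in blood, where neutrophil elastase is its best known target, and proximal tubule cells of the kidney take filtered protein back up and are also known to transcribe the gene. Human genomes carry a single SERPINA1 gene, whereas the gene is multiplied in mice, with the copies differing most in the bait loop.

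The 6 members lie on the minus strand of chromosome 12 in the serpin cluster (build GRCm38, GENCODE M21). Serpina1f occupies chr12:103688044-103695529, Serpina1b chr12:103728156-103830373, Serpina1d chr12:103763594-103773592, Serpina1a chr12:103853589-103863562, Serpina1c chr12:103894926-103904887 and Serpina1e chr12:103946931-103958975. The annotated span of Serpina1b contains the whole of Serpina1d, and Serpina1c overlaps the gene B430119L08Rik. The coding sequences of Serpina1a to Serpina1e were between 96.3% and 98.5% identical, the closest pair being Serpina1a and Serpina1c. Serpina1f was 53.5% to 54.3% identical to the others. Of 86 coding positions that vary among Serpina1a to Serpina1e, 18 fall in the 60 bases shown here (coding positions 1101 to 1160 of 1239), which include part of the stretch encoding the bait loop. The bases are given 5′ to 3′ on the coding strand, and capitals mark bases that differ from Serpina1a.
Serpina1a: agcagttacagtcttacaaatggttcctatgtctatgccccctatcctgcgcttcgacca
Serpina1b: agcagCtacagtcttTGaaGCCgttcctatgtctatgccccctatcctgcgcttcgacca
Serpina1c: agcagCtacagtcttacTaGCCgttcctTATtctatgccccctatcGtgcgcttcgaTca
Serpina1d: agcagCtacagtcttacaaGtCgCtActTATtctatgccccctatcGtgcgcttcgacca
Serpina1e: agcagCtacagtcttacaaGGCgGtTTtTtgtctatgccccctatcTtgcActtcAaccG
In this stretch Serpina1b differed from Serpina1a at 6 bases, Serpina1d at 9, Serpina1c at 10 and Serpina1e at 12.

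How much a read can tell these genes apart follows from how much of their transcripts is shared. Of all 100-base windows along the annotated exons, 100% were found in no other member for Serpina1f, 86.2% for Serpina1b, 85.6% for Serpina1e, 73.7% for Serpina1d, 59.2% for Serpina1a and 41.5% for Serpina1c. Serpina1c shared 58.0% of its windows with Serpina1a. The windows stand for single reads, and what the second read of a pair adds was not tested. The estimated counts of Serpina1a to Serpina1e were not whole numbers in any of the 20 mice, as happens when shared reads are divided between genes, whereas those of Serpina1f were whole in all 20. The values of Serpina1a and Serpina1c are therefore the least certain individually, the sum of Serpina1a to Serpina1e does not depend on how reads were divided within the family, and Serpina1f rests on reads of its own. Windows also found in genes outside the family numbered 380 of 1262 for Serpina1c and 274 of 1795 for Serpina1a. They numbered 146 of 1295 for Serpina1d, 137 of 2306 for Serpina1b, 103 of 1518 for Serpina1e and 0 for Serpina1f. The sum can depend on how reads were divided with those genes, which was not tested. Reads from the 129 haplotype were aligned to the C57BL/6J reference, and the effect of this on the division of reads was not tested.

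The start regions also set Serpina1f apart. In the RefSeq promoters (GRCm38.p6, 250 bases before the transcription start), the longest run shared by Serpina1a to Serpina1e held the letters GTTAATATTCAC. Searched on both strands, these 12 letters, which begin with the shorter motif GTTAAT, occurred in 5 of 32851 promoters (0.0152%), and these 5 were Serpina1a to Serpina1e, from whose shared run the letters were taken. The run has 55 bases and is shown 5′ to 3′ on the minus strand with the 12 letters in capitals, and in Serpina1a it lies at chr12:103863625-103863679.
Serpina1a to Serpina1e: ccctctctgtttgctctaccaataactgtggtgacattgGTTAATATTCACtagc
These letters began 21 bases before the RefSeq start in Serpina1a, 26 in Serpina1b, 27 in Serpina1c, 16 in Serpina1d and 78 in Serpina1e. They were not found in the Serpina1f window, nor was GTTAAT alone, which 6.43% of all promoters held. A match is a description of sequence only.

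Depth was even, with 28474301 to 29479629 estimated counts per library, so that a level of 1 CPM (counts scaled to a common library size) stands for about 29 counts. The labelled tissue was borne out by its markers, since the summed level of 9 proximal tubule genes was between 1989 and 24207 CPM in every mouse, while the 4 markers of pancreas were near 0 throughout. The extraction protocol in the labels speaks of adipose tissue, although every sample is labelled kidney, and adipocyte markers are given with the other cell types. Col4a3 was at 194 to 238 CPM in WT and at 27.9 to 74.9 CPM in the 15 Col4a3-/- mice. CPM values below were scaled by the trimmed mean of M-values (TMM), with factors of 0.771 to 0.850 in WT and 1.12 to 1.26 in Veh. With library totals alone as the scale, the middle of all genes would lie at a log2 fold change of 0.65 in Veh versus WT, -0.38 in Anti-miR-21 versus Veh and -0.32 in ACEi versus Veh, where TMM places it at 0.07, -0.04 and -0.05. Nothing in the labels says whether the numbers of the mice mark litters or days, and each library is taken as 1 mouse.

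Several libraries stood apart in some transcripts typical of liver, and they have to be named before the members. Ahsg, which encodes the hepatocyte plasma protein fetuin-A, had 155 to 230 counts in the 3 libraries sequenced in lane 1 of flow cell B (WT mice A17 and A18 and Veh mouse A20), 39 and 56 counts in ACEi mice A13 and A23, and 0 to 13 counts in the remaining 15. Alb, encoding albumin, followed with 1765 to 2307, 639 to 680 and 7 to 247 counts. Cps1, a urea cycle enzyme, had 24 to 42, 11 to 18 and 0 to 5 counts. Other hepatocyte markers did not separate these 5 libraries. Apoa2, with 74 to 89, 6 to 47 and 0 to 37 counts, was highest in lane 1 only. Apoh had 158 to 882, 391 to 417 and 31 to 580 counts, and Fgb 115 to 385, 147 to 174 and 9 to 417, so both overlapped. Over the whole list of 8 hepatocyte markers the summed level ran from 419 to 592 CPM in WT, 108 to 534 in Veh, 287 to 403 in Anti-miR-21 and 470 to 757 in ACEi. Most of that sum was Ttr and Apob, which the kidney list did not hold and which varied in all libraries, and Cps1 was at 0 in all 6 Anti-miR-21 mice. Serpina1e and, less sharply, Serpina1c were highest in the same 5 and the same 3 libraries respectively, as described below. Values without these libraries, a choice made after seeing the data, are therefore given beside several of the results, and the part of these transcripts in any other result was not tested.

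**Figure D1:**
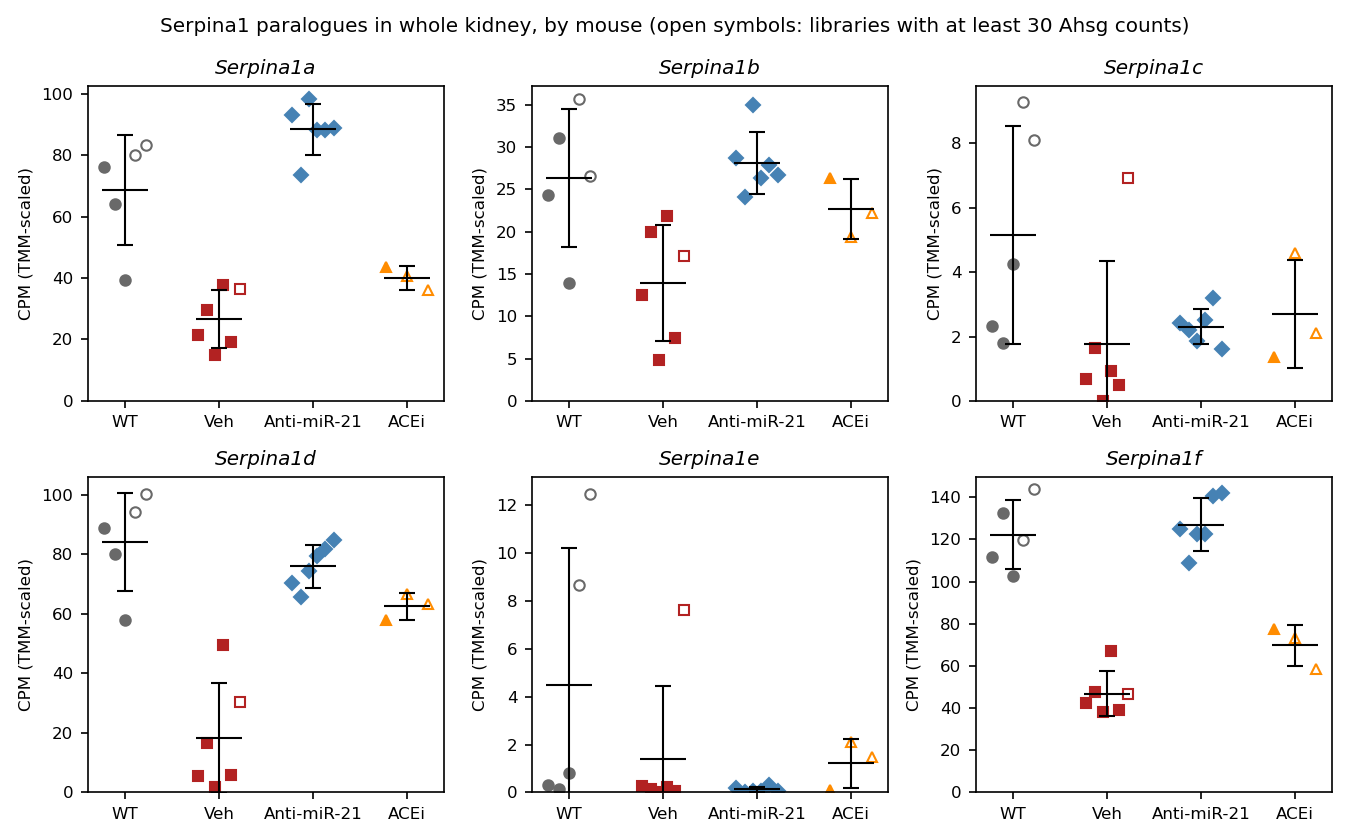
Level of each Serpina1 paralogue in CPM (TMM-scaled, vertical axes from 0) in each mouse of the 4 groups, with the group mean and SD as bars (cut at 0) and open symbols for the 5 libraries with at least 30 Ahsg counts. Serpina1a, Serpina1d and Serpina1f of the 6 Veh mice lie below all WT mice, and the high values of Serpina1e are all open symbols.

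Levels can be compared between genes only per length of transcript. On the FPKM scale (fragments scaled to transcript length and library size), the order in WT kidney was Serpina1d at 49.4 ± 10.1, Serpina1f at 33.5 ± 5.03, Serpina1a at 31.3 ± 8.18, Serpina1b at 15.8 ± 5.35, Serpina1c at 3.84 ± 2.58 and Serpina1e at 2.74 ± 3.49 (mean ± SD, n = 5). Serpina1f and Serpina1a differed by less than their spread in that order, as did Serpina1c and Serpina1e. In Veh the order changed, with Serpina1f at 19.3 ± 3.31 and Serpina1a at 18.5 ± 6.13 level with each other and above Serpina1d at 15.6 ± 15.0 and Serpina1b at 12.5 ± 5.80 (n = 6). Under anti-miR-21 Serpina1d stood at 53.0 ± 2.33, Serpina1a at 48.3 ± 5.71 and Serpina1f at 41.1 ± 2.89 (n = 6). With ACEi Serpina1d stood at 45.4 ± 1.64, and Serpina1f at 23.8 ± 3.65 and Serpina1a at 22.5 ± 2.82 were again level (n = 3). The authors flagged the FPKM entries of Serpina1a, Serpina1c and Serpina1d as confounded, and the annotated spans of these entries overlap, so these 3 levels are approximate.

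The comparison of Veh with WT asked what kidney disease in this model did to the family. The paralogues Serpina1a, Serpina1b, Serpina1d and Serpina1f fell, and the summed level of Serpina1a to Serpina1e was 61.9 ± 36.4 CPM in Veh (n = 6) against 189 ± 46.5 in WT (n = 5). These 4 members called lower, with 0 higher, are read against a background in which 34.0% of 17622 genes tested were called lower and 73.0% in either direction by the same test (edgeR quasi-likelihood, adjusted p under 0.05 over all genes). The median log2 fold change of the 6 members was -1.46, beside 0.07 over all genes. As the tissue was sequenced in bulk, fewer cells of a type and less RNA per cell cannot be told apart here or in any later comparison.

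Serpina1f, the divergent member, gave the most precise change. Its level in the WT mice was 112, 133, 103, 120 and 144 CPM, and in the Veh mice it ran from 38.4 through a median of 44.5 to 67.0. The groups did not overlap, as was true of 3 members and of 54.9% of all genes tested. The log2 fold change was -1.38 ± 0.13 (SE, edgeR adjusted p = 4.85e-09), a 2.61-fold lower level. Serpina1a stood at 76.0, 64.2, 39.4, 80.0 and 83.3 CPM in WT and at 15.1 to 37.8 CPM in Veh with a median of 25.6. The lowest WT mouse, A14, lay just above the highest Veh mouse, and the fall was 2.58-fold (log2 -1.37 ± 0.20, edgeR adjusted p = 4.81e-06).

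Serpina1d fell furthest among the called members and was the most variable. It stood at 88.8, 80.0, 57.9, 94.1 and 100.2 CPM in WT, and in the Veh mice at 1.68 in A9, 5.42 in A1, 5.74 in A19, 16.6 in A4, 30.3 in A20 and 49.4 in A16. No Veh mouse reached the lowest WT mouse, but the Veh mice themselves spanned a wide range, with A16 and A20 well above A9. The log2 fold change was -2.21 ± 0.50 (edgeR adjusted p = 0.00049), and within flow cell A alone, which leaves out A16 and A20, it was -3.35 (adjusted p = 1.95e-05), against -1.29 within flow cell B (adjusted p = 0.00283). Serpina1b was at 24.4, 31.0, 13.9, 35.7 and 26.6 CPM in WT and 4.79 to 21.8 in Veh with a median of 14.8, so that the groups overlapped. Its log2 fold change of -0.92 ± 0.29 (edgeR adjusted p = 0.00715) was not called without the 3 lane 1 libraries (-0.80, adjusted p = 0.054) or with library totals (-0.36, adjusted p = 0.257). The other 3 called members kept their calls in both. For the sum the log2 fold change was -1.61 ± 0.30 (edgeR adjusted p = 6.39e-05), and without the lane 1 libraries it was -1.56 (adjusted p = 0.000525). It was -1.97 within flow cell A (adjusted p = 2.87e-05) and -1.14 within flow cell B (adjusted p = 0.000306).

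Anti-miR-21 against Veh asked what the oligonucleotide changed within Col4a3-/- kidneys, and it shares the Veh mice with the comparison just described. The same 4 genes were the ones that rose here, with Serpina1d and Serpina1a showing the largest differences, and the sum of Serpina1a to Serpina1e reached 195 ± 15.3 CPM (n = 6). The 4 members called higher compare with 28.8% of all genes called higher, and Serpina1e was the 1 member called lower, where 30.5% of all genes were. The groups did not overlap for 4 members and for 36.4% of all genes tested.

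Serpina1a in the Anti-miR-21 mice ran from 73.6 in A8 through a median of 88.6 to 98.3 CPM in A10. Every one of these mice lay above the highest Veh mouse at 37.8 CPM, and the level was 3.32-fold higher (log2 1.73 ± 0.20, edgeR adjusted p = 4.79e-07). The choice of the family drew on these Anti-miR-21 values, so this test is not independent of it. Serpina1d ran from 65.6 through 76.8 to 84.6 CPM. That is a narrow range beside the 1.68 to 49.4 CPM of the Veh mice, and the log2 difference was 2.07 ± 0.48 (edgeR adjusted p = 0.00105). Serpina1f ran from 109 through 124 to 142 CPM and Serpina1b from 24.1 through 27.3 to 35.0 CPM, both clear of all Veh mice. Their log2 differences were 1.44 ± 0.12 (edgeR adjusted p = 3.59e-08) and 1.01 ± 0.28 (edgeR adjusted p = 0.00358). Without the lane 1 libraries these 4 kept their calls, at 1.85 for Serpina1a, 2.28 for Serpina1d, 1.44 for Serpina1f and 1.09 for Serpina1b. For the sum the log2 difference was 1.65 ± 0.29 (edgeR adjusted p = 6.08e-05). Within flow cell A it was 2.24 (adjusted p = 1.02e-05), and without the lane 1 libraries it was 1.84 (adjusted p = 5.56e-05), and flow cell B holds only 1 Anti-miR-21 mouse.

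ACEi against Veh asked the same of ramipril, again with the shared Veh mice and with 3 treated mice. Serpina1d and Serpina1f rose, and the sum of Serpina1a to Serpina1e was 129 ± 4.18 CPM (n = 3). The 2 members called higher compare with 21.0% of all genes called higher and 40.1% in either direction, and 0 members were called lower, where 19.1% of all genes were. Serpina1d was at 57.8, 66.6 and 63.2 CPM, above every Veh mouse, and was the 1 member whose groups did not overlap, as was true of 38.6% of all genes. Its log2 difference was 1.78 ± 0.55 (edgeR adjusted p = 0.0141). It was 0.64 and not called within flow cell B (adjusted p = 0.114), nor was it called with only these groups fitted (1.79, adjusted p = 0.0738) or without the 5 Ahsg libraries (1.88, adjusted p = 0.159, 1 ACEi mouse left), whereas without the lane 1 libraries it was 1.998 (adjusted p = 0.0138). Serpina1f was at 77.5, 73.1 and 58.7 CPM, and the lowest of these lay below Veh mouse A16 at 67.0. Its log2 difference was 0.57 ± 0.15 (edgeR adjusted p = 0.00381), and it was not called on library totals (0.31, adjusted p = 0.0518), within flow cell B (0.41, adjusted p = 0.204) or on log2(FPKM + 1) (0.30, limma adjusted p = 0.0525). Without the lane 1 libraries it was 0.58 (adjusted p = 0.00695). Serpina1a was at 43.6, 40.8 and 36.0 CPM, with the lowest mouse inside the Veh range. Its log2 difference of 0.59 ± 0.24 just missed the threshold (edgeR adjusted p = 0.0504), and it passed without Veh mouse A16 (0.75, adjusted p = 0.0129), without A20 (0.73, adjusted p = 0.0187) and without A4 (0.65, adjusted p = 0.0447). With all mice it passed by the DESeq2 Wald test (adjusted p = 0.0396), with no filter (adjusted p = 0.0495) and with at least 10 counts in every mouse (adjusted p = 0.0462), and it passed without the lane 1 libraries (0.71, adjusted p = 0.0217). Serpina1b, at 26.4, 19.4 and 22.2 CPM, was not called (log2 0.70 ± 0.33, edgeR adjusted p = 0.0949), and it passed without Veh mouse A16 (0.90, adjusted p = 0.0314). For the sum the log2 difference was 1.06 ± 0.34 (edgeR adjusted p = 0.0164), and it was not called within flow cell B, where 2 ACEi mice meet 2 Veh mice (0.33, adjusted p = 0.0989), nor without ACEi mouse A13 (1.04, adjusted p = 0.0521).

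**Figure D2:**
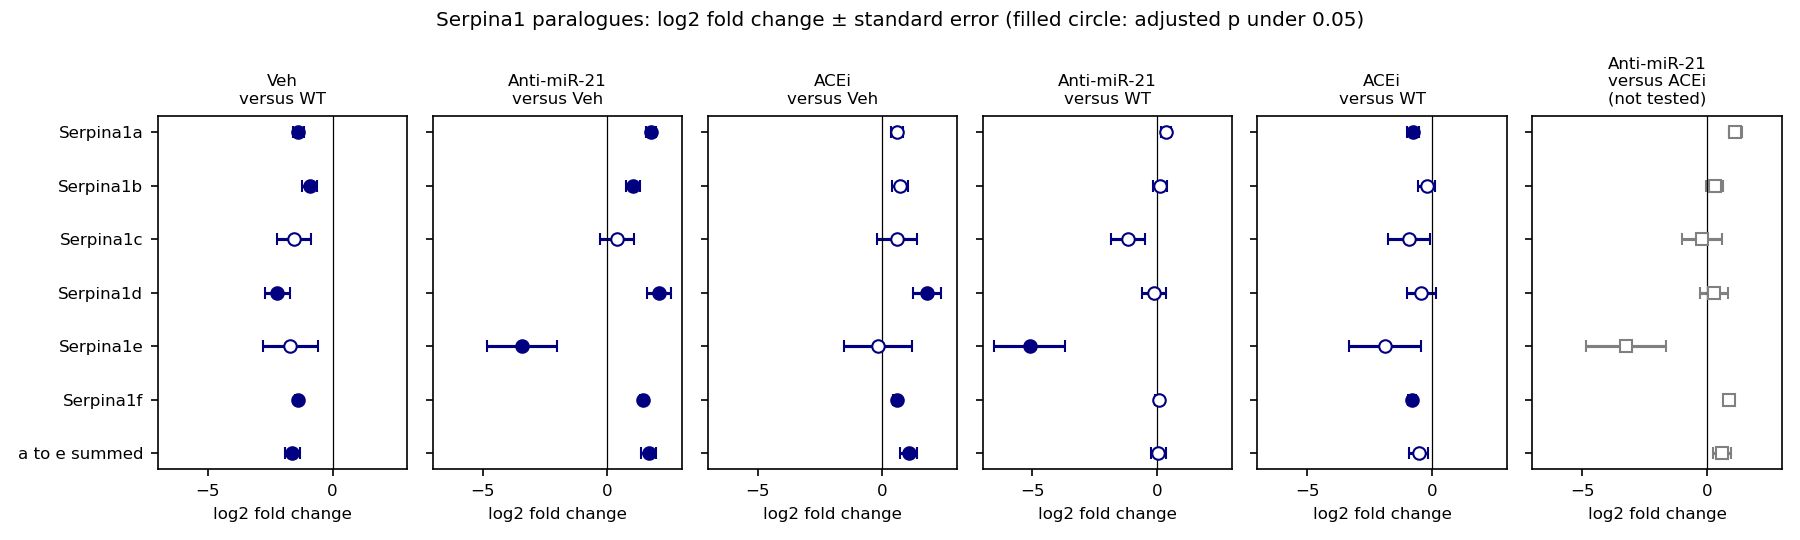
Log2 fold change ± standard error (horizontal axes) of each Serpina1 paralogue and of Serpina1a to Serpina1e summed in 6 comparisons, with filled circles for an edgeR adjusted p under 0.05 and grey squares for the comparison that was not tested. Serpina1a, Serpina1b, Serpina1d and Serpina1f lie left of 0 for Veh versus WT and right of 0 for Anti-miR-21 versus Veh, and Serpina1e has the widest bars.

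Set against WT, the treated mice showed how far each member stood from the untreated kidney. In Anti-miR-21 mice only Serpina1e was called, lower, beside 19.8% of all genes called lower and 43.7% in either direction. The log2 difference from WT was 0.37 ± 0.20 for Serpina1a (edgeR adjusted p = 0.154), 0.10 ± 0.29 for Serpina1b (adjusted p = 0.813), -0.15 ± 0.48 for Serpina1d (adjusted p = 0.828) and 0.06 ± 0.13 for Serpina1f (adjusted p = 0.751). The approximate 95% interval was -0.53 to 0.62 for the sum, -0.03 to 0.76 for Serpina1a and -0.19 to 0.30 for Serpina1f. Differences within these intervals were not excluded. The sign for Serpina1d turned on library totals (0.09), and Serpina1a was called higher there (0.61, adjusted p = 0.0165) and with flow cell as a term (0.50, adjusted p = 0.021). Serpina1f was called higher on library totals as well (0.29, adjusted p = 0.0393).

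In ACEi mice Serpina1a and Serpina1f stayed below WT, 2 members called lower where 22.5% of all genes were called lower and 47.7% in either direction. None was called higher (0 members, beside 25.2% of all genes). Serpina1f did not overlap with WT, as was true of 46.1% of all genes, and its log2 difference was -0.81 ± 0.16 (edgeR adjusted p = 0.000303). Serpina1a differed by -0.77 ± 0.25 (edgeR adjusted p = 0.0158), with its 3 values of 36.0 to 43.6 CPM touching only the lowest WT mouse at 39.4. It was not called without ACEi mouse A23 (-0.69, adjusted p = 0.0727), without the lane 1 libraries (-0.57, adjusted p = 0.0877), without the 5 Ahsg libraries (-0.45, adjusted p = 0.444) or on library totals (-0.46, adjusted p = 0.119). Serpina1d at -0.43 ± 0.59 (edgeR adjusted p = 0.575) and the sum at -0.55 ± 0.36 (adjusted p = 0.226) were not called, with approximate 95% intervals of -1.59 to 0.73 and -1.26 to 0.16. The sum was called lower within flow cell B (-0.80, adjusted p = 0.00283) and with only these groups fitted (-0.52, adjusted p = 0.0443). The call of Serpina1f was lost without the 5 Ahsg libraries, which leaves 1 ACEi mouse (-0.58, adjusted p = 0.124).

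The pair of treatments is given side by side, without a test, because the family was chosen on it. Serpina1a had a mean of 88.4 ± 8.23 CPM in Anti-miR-21 (n = 6) and 40.1 ± 3.86 CPM in ACEi (n = 3), and the lowest Anti-miR-21 mouse at 73.6 CPM was above the highest ACEi mouse at 43.6. The fitted log2 difference was 1.14, a 2.20-fold higher level. Serpina1f had means of 127 ± 12.5 and 69.8 ± 9.82 CPM and did not overlap either, with a log2 difference of 0.86. Serpina1d, in contrast, had means of 76.0 ± 7.24 and 62.5 ± 4.46 CPM and overlapped, with a log2 difference of 0.28, and Serpina1b overlapped with a log2 difference of 0.31. The sum did not overlap (165.5 CPM at the lowest in Anti-miR-21, 133 at the highest in ACEi) and differed by 0.59. Of all genes tested, 8.99% did not overlap between these treatments. Without the 5 libraries with at least 30 Ahsg counts, which leaves 1 ACEi mouse, the difference was 1.02 for Serpina1a and 0.71 for Serpina1f, and with flow cell as a term the difference for Serpina1a was 1.38.

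Serpina1e and Serpina1c were highest in the libraries named above for liver transcripts. Serpina1e had 211.96 and 297 estimated counts in WT mice A17 and A18 and 270 in Veh mouse A20, then 59.2 in ACEi mouse A13 and 43.2 in A23, and at most 19.5 counts in the other 15 libraries. These are the same 5 libraries that held the most Ahsg. In the Anti-miR-21 mice it had 1.13 to 7.99 counts, so the fitted differences of these mice rest on few reads, depend on the prior count and are no bound on the fold. The call of lower Serpina1e against Veh (log2 -3.43 ± 1.42, edgeR adjusted p = 0.0437) was gone without Veh mouse A20 (-0.11, adjusted p = 0.953). Its call against WT (-5.11 ± 1.43, edgeR adjusted p = 0.00704) was gone without the lane 1 libraries (-1.68, adjusted p = 0.129). Without Veh mouse A20, Serpina1e was instead called higher in ACEi than in Veh (3.14, adjusted p = 0.0388), where 2 of the 3 ACEi mice are among the 5 libraries, and lower in Veh than in WT (-4.99, adjusted p = 0.000359).

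Serpina1c had 193 to 245 counts in the lane 1 libraries and at most 128 in the other 17, with Veh mouse A9 at 0. It was called in no comparison, with log2 differences of -1.54 ± 0.69 for Veh versus WT (edgeR adjusted p = 0.0506) and 0.38 ± 0.67 for Anti-miR-21 versus Veh (adjusted p = 0.646). Without the lane 1 libraries it was called lower in Veh (-1.89, adjusted p = 0.0101) and higher in Anti-miR-21 (1.63, adjusted p = 0.0137) and ACEi (1.84, adjusted p = 0.0211). Within flow cell A it was likewise lower in Veh than in WT (-1.97, adjusted p = 0.0187) and higher in Anti-miR-21 than in Veh (1.77, adjusted p = 0.0249). With flow cell as a term it was called lower in Veh (-1.59, adjusted p = 0.022), but the rise in Anti-miR-21 was not called (1.07, adjusted p = 0.145). The ACEi value without the lane 1 libraries still includes mice A13 and A23, with 39 and 56 Ahsg counts. The remaining ACEi mouse, A11, had 1.38 CPM of Serpina1c, between Veh mice A16 at 0.93 and A4 at 1.63. The member with which Serpina1c shares the most windows is Serpina1a. In the libraries that held little Ahsg, Serpina1c had the sign of Serpina1a for Veh versus WT and for Anti-miR-21 versus Veh. The part of divided reads in this was not tested.

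**Figure D3:**
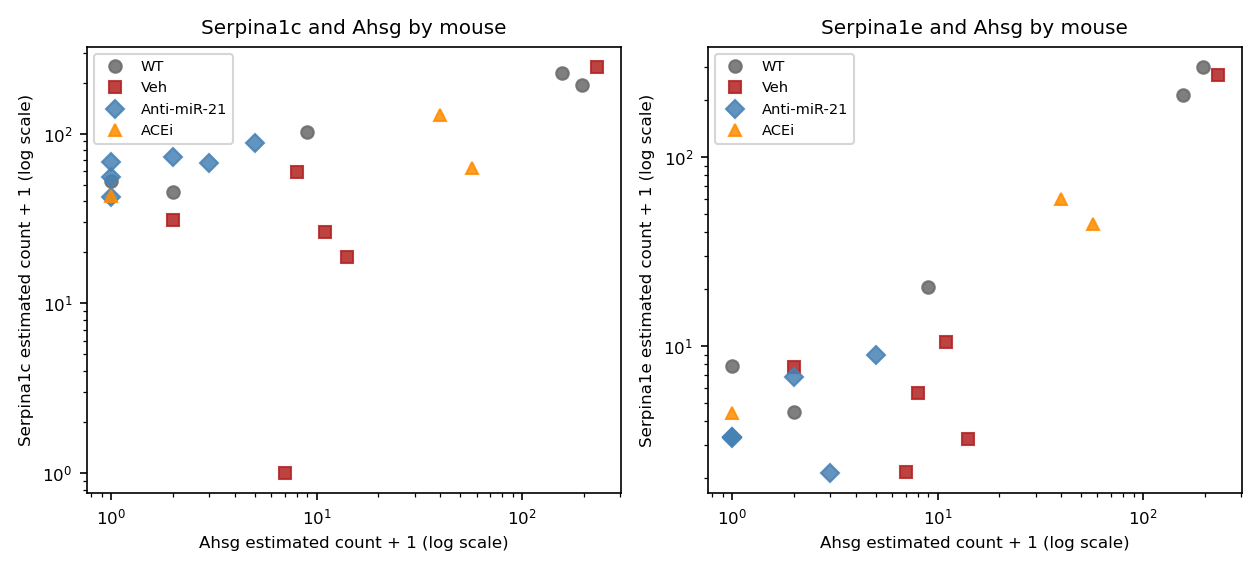
Estimated counts of Serpina1c (left) and Serpina1e (right) plus 1 against those of the hepatocyte marker Ahsg plus 1 in each of the 20 mice, both axes on a log scale, with 1 symbol for each group. The 5 libraries with at least 30 Ahsg counts hold the 5 highest Serpina1e counts, and the 3 highest of Serpina1c are in lane 1 of flow cell B.

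The mix of paralogues within the family was measured as each gene's share of the summed counts of Serpina1a to Serpina1e. In WT the mean shares were 45.2% ± 3.17 for Serpina1d, 36.2% ± 2.13 for Serpina1a, 13.9% ± 2.60 for Serpina1b, 2.70% ± 1.46 for Serpina1c and 2.03% ± 2.43 for Serpina1e (SD, n = 5). In Veh the share of Serpina1d was 23.1% ± 13.4, ranging from 7.83% in A9 to 44.8% in A16, and that of Serpina1a ranged from 34.3% in A16 to 69.8% in A9 (n = 6). So the Veh mouse with least family RNA was made up mostly of Serpina1a and the Veh mouse with most had a mix like WT. Under anti-miR-21 Serpina1a took 45.3% ± 1.66 and Serpina1d 39.0% ± 2.62, and with ACEi 31.0% ± 2.52 and 48.4% ± 3.22.

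Tests of these mean shares were two-sided exact permutation tests, adjusted over 15 shares tested. Every share is divided by a sum that includes Serpina1a, so tests under either treatment are not independent of the choice of the family. Serpina1b took 23.7% in Veh against 13.9% in WT (exact p = 0.00649, adjusted 0.0325) and 14.4% in Anti-miR-21 (exact p = 0.00216, adjusted 0.0162, the smallest p that 924 divisions of the mice allow). Serpina1d took less in Veh than in WT (exact p = 0.0108, adjusted 0.0406), and its higher share in Anti-miR-21 than in Veh missed the threshold (exact p = 0.0195, adjusted 0.0584). Serpina1e had a lower share in Anti-miR-21 than in Veh (0.0659% against 1.52%, adjusted exact p = 0.0162), a mean that Veh mouse A20 at 7.74% lifts. Without the lane 1 libraries the Veh mean was 0.273%, and the difference still passed (adjusted exact p = 0.0162). In those libraries Serpina1e had only 1.15 to 9.48 counts in Veh and 1.13 to 7.99 in Anti-miR-21. The summed counts it was divided by were 771 to 3571 in Veh and 4941 to 6070 in Anti-miR-21. The lower share therefore does not show a lower level of Serpina1e. None of the 5 shares passed for ACEi versus Veh, where the smallest p that 84 divisions allow is 0.0119 and 2 shares had an unadjusted exact p under 0.05. Without the lane 1 libraries the differences of Veh from WT were 10.9 percentage points for Serpina1b and -25.5 for Serpina1d, and 0 shares passed, where 56 divisions allow no exact p under 0.0179 before adjustment. Because the counts divide shared reads, a share is an estimate by the counting method.

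**Figure D4:**
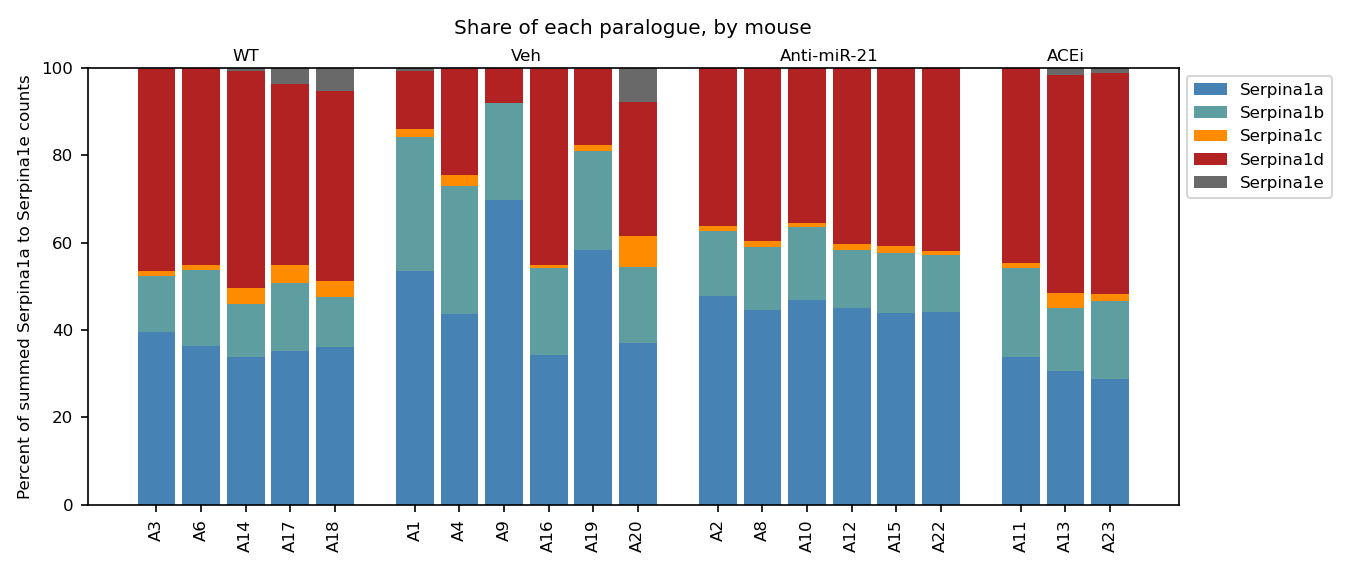
Share of each of Serpina1a to Serpina1e in their summed estimated counts (vertical axis, percent) in each mouse, grouped as WT, Veh, Anti-miR-21 and ACEi. Serpina1d ranges from 7.83% to 44.8% among the 6 Veh mice, and the 6 Anti-miR-21 mice are alike, with Serpina1a near 45.3% and Serpina1d near 39.0%.

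Markers of the tubule segment known to express the gene moved with these results, as did some markers of other segments. Counts called here and in the lists below stand beside 39.0% of all genes called higher and 34.0% lower in Veh versus WT. For Anti-miR-21 versus Veh these were 28.8% and 30.5%, and for ACEi versus Veh 21.0% and 19.1%. All 9 proximal tubule markers were called lower in Veh than in WT (median log2 fold change -2.66) and higher in Anti-miR-21 (1.97) and ACEi (1.81) than in Veh. Their summed level was 18766 to 24207 CPM in WT, 1989 to 5522 in Veh, 9877 to 17495 in Anti-miR-21 and 9971 to 12682 in ACEi. Among Veh mice, A9 was lowest and A16 highest in this sum, as they were in Serpina1d and in the sum of Serpina1a to Serpina1e. Between the treatments the summed ranges overlapped, and single markers went both ways, with Slc7a13 at 705 CPM in Anti-miR-21 and 366 in ACEi, and Slc5a2 at 304 and 375. The part of tubule cell number in the results was not tested. All 5 macrophage markers went the other way, with 137 to 150 CPM summed in WT, 771 to 943 in Veh, 334 to 503 in Anti-miR-21 and 431 to 510 in ACEi. Of 5 adipocyte markers, 4 were called higher in Veh than in WT (median log2 fold change 3.69) and 4 lower in ACEi than in Veh (-5.22), with none called for Anti-miR-21 versus Veh. Their sum was 1.68 to 18.3 CPM in WT, 0.592 to 410.1 in Veh, 4.70 to 224 in Anti-miR-21 and 0.525 to 8.09 in ACEi. Veh mice A1, A4 and A9 held 351 CPM or more and A16, A19 and A20 at most 23.4, and the part of adipose tissue in the results was not tested.

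**Figure D5:**
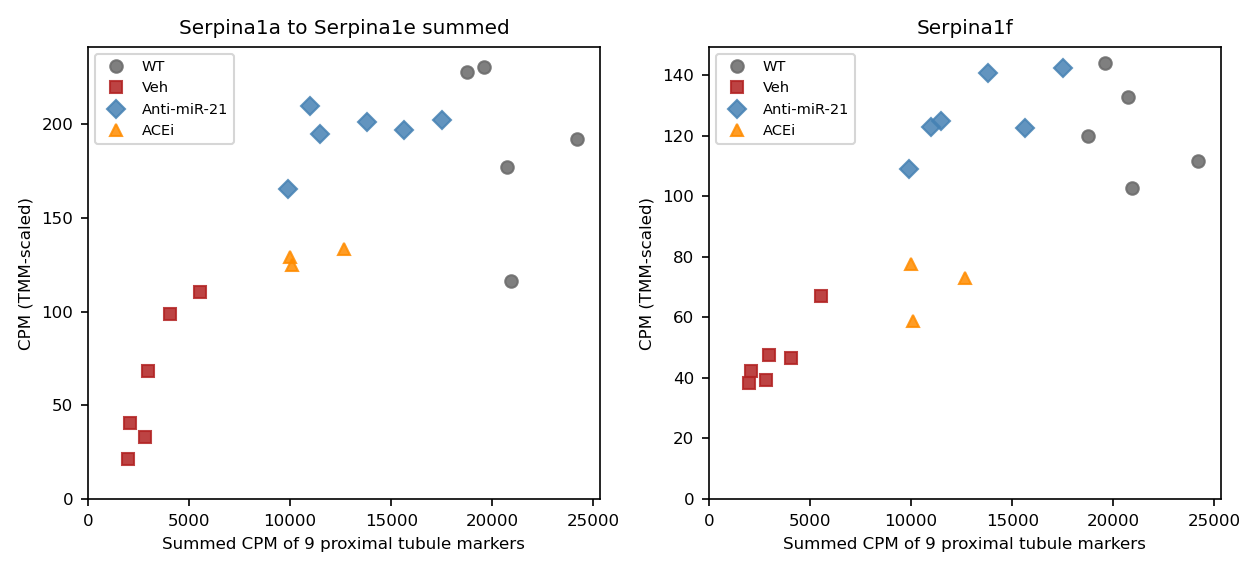
Summed level of Serpina1a to Serpina1e (left) and level of Serpina1f (right), in CPM, against the summed CPM of 9 proximal tubule markers in each mouse. Veh mice lie at the lower left of both panels, and the 3 ACEi mice lie below the 6 Anti-miR-21 mice in both panels, with marker sums that overlap.

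Nearly all other serpins called in Veh versus WT were higher, whereas the called Serpina1 members were lower. Of 20 other genes of clade A, 13 were tested, and in Veh versus WT 9 were called higher and 0 lower, with a median log2 fold change of 3.31. The 3 most abundant of them were Agt, Serpina3n and Serpina10. Agt, which encodes angiotensinogen, was at 105 ± 17.9 CPM in WT and 111 ± 8.93 in Veh (log2 0.08, edgeR adjusted p = 0.461). Serpina3n, an acute-phase inhibitor, rose from 3.57 ± 2.12 CPM in WT to 149 ± 39.7 in Veh (log2 5.37, edgeR adjusted p = 3.11e-11) and stood at 36.3 ± 12.5 in Anti-miR-21 and 52.0 ± 4.72 in ACEi. Serpina10, the protein Z-dependent protease inhibitor and the next serpin beyond Serpina6 and Serpina16 along the cluster from Serpina1f, rose from 6.25 ± 2.16 to 72.2 ± 12.4 CPM (log2 3.53, edgeR adjusted p = 9.09e-11). Against Veh, Anti-miR-21 had 9 of the 13 called lower and Agt higher, and ACEi had 3 called lower.

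Of 14 serpins of other clades, all tested, 10 were called higher in Veh than in WT and 1 lower. The lower one was Serpinf2, which encodes alpha-2-antiplasmin, at 786 ± 66.8 CPM in WT and 84.6 ± 55.6 in Veh (log2 -3.22, edgeR adjusted p = 1.15e-08), with 492 ± 129 in Anti-miR-21 and 380 ± 18.1 in ACEi. Serping1, the C1 inhibitor, and Serpinh1, a collagen chaperone, rose in Veh, by 2.43 and 1.72 on the log2 scale (edgeR adjusted p = 1.9e-09 and 1.67e-10). Against Veh, 10 of the 14 were called lower and 2 higher in Anti-miR-21, and 9 lower and 2 higher in ACEi.

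Of the proteases that alpha-1 antitrypsin inhibits, 1 of 3 passed the filter. Prtn3, neutrophil proteinase 3, was at 0.0842 CPM in WT, 1.97 ± 0.494 in Veh, 1.12 ± 0.213 in Anti-miR-21 and 0.605 ± 0.0859 in ACEi, and was called higher in Veh than in WT (log2 4.48, edgeR adjusted p = 2.98e-11). Elane, neutrophil elastase, was at or near 0 in all groups and Ctsg, cathepsin G, was at 0 in every group mean. Of 4 neutrophil markers tested, 2 were called higher in Veh than in WT, Csf3r and Cxcr2, and S100a9 (log2 0.71, edgeR adjusted p = 0.244) and S100a8 (0.34, adjusted p = 0.616) were not. Their sum, 0.76 to 4.37 CPM in WT and 15.1 to 22.3 in Veh, was mostly Csf3r, at 16.5 CPM in Veh.

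Among 13 transcription factors and cytokine signalling genes known to act on the gene, 11 were tested. In Veh versus WT 7 were called higher and 3 lower, beside 39.0% and 34.0% of all genes. Hnf4a, a transcription factor of hepatocytes and proximal tubule cells, was among the lower ones. It stood at 826 ± 89.1 CPM in WT, 245 ± 52.9 in Veh, 623 ± 85.8 in Anti-miR-21 and 570 ± 31.8 in ACEi. Its log2 fold changes were -1.75 for Veh versus WT (edgeR adjusted p = 3.27e-10), 1.35 for Anti-miR-21 versus Veh (adjusted p = 7.24e-08) and 1.22 for ACEi versus Veh (adjusted p = 1.37e-05). The receptor chain gene Il6st rose in Veh by 0.47 (edgeR adjusted p = 1.14e-05).

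Genes for folding, export, degradation and uptake of the protein completed the pathway, and all 12 were tested. In Veh versus WT 1 was called higher and 10 lower (median log2 fold change -0.42). Lrp2 encodes megalin, the proximal tubule receptor for filtered proteins, and was also a proximal tubule marker here. It fell from 1537 ± 226 to 292 ± 105 CPM (log2 -2.40, edgeR adjusted p = 1.05e-09). The chaperones Canx and Calr fell by 0.47 and 0.32 on the log2 scale (edgeR adjusted p = 1.25e-05 and 0.0207). Against Veh, Anti-miR-21 had 7 called higher and 1 lower, and ACEi 6 and 1, where Lrp1, the receptor that clears serpin complexes, was the lower one in both.

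The genes whose log2 CPM followed each member most closely over the 20 mice, of 13192 compared, are a description, since points share groups, libraries and scaling. For Serpina1a these were Ceacam2 (r = 0.943), Ftcd (r = 0.943), an enzyme of histidine breakdown, and Bhmt (r = 0.934), betaine-homocysteine methyltransferase. For Serpina1b they were Ceacam2 (r = 0.874), Aldh3b3 (r = 0.858) and Apoc3 (r = 0.858). For Serpina1d they were Aldh3b3 (r = 0.976), the glycosyltransferase gene Ugt3a1 (r = 0.972) and the complement gene C8a (r = 0.969). For Serpina1f they were the amino acid transporter gene Slc6a18 (r = 0.964), Ftcd (r = 0.962) and Gm10681 (r = 0.959). For the sum they were Aldh3b3 (r = 0.957), Apoc3 (r = 0.952) and Ugt3a1 (r = 0.952). The nearest gene to both Serpina1c (r = 0.896) and Serpina1e (r = 0.815) was Alb, followed by Gpn1 and Tldc2 for the former and by Aqp2 and Fbxo44 for the latter. Between members, r was 0.945 for Serpina1a and Serpina1f, which share no 100-base window, 0.875 for Serpina1a and Serpina1d, and 0.114 for Serpina1a and Serpina1e.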

How the data were processed

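Whole-kidney RNA of 20 mice was sequenced by the authors as 100-base read pairs, aligned to GRCm38 with the OSA aligner and quantified in OmicSoft software. The deposited count table holds estimated counts per Ensembl gene (29.1% of positive values were not whole), and a second deposited table holds FPKM per gene entry. Of the FPKM columns, 3 matched no sample and were not used. Flow cell and lane were read from the library names in the labels, and the deposited library table gives alignment counts (70004591 to 73294858 per library). Expected counts were rounded and tested with edgeR 4.0.16 in R 4.3.3 (quasi-likelihood, TMM, filterByExpr with a minimum count of 10 and a total of 15, all 4 groups in 1 fit), with Benjamini-Hochberg adjustment over 17622 genes and a threshold of 0.05. The sum of Serpina1a to Serpina1e was tested as 1 gene replacing them. Log2 CPM used a prior count of 2. Approximate 95% intervals are the estimate plus or minus normal quantiles of the SE. Shares used mice with at least 30 summed counts (all 20). Reads are not independent molecules, so depth bounds counting error only. The edgeR p-values set a group difference against the spread between mice, estimated from all 4 groups together and shared in part across genes.

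Alternatives were DESeq2 1.42.0, its size factors, upper-quartile and library-total scaling, no filter, at least 10 counts in every mouse, flow cell as a term or separate fits for each, fits of just the groups compared, each mouse left out, and limma 3.58.1 on log2(FPKM + 1) and log2(FPKM + 0.1) for entries above 0.1 in 3 mice. Named genes were the 6 members, the 3 genes most correlated with each member (mean log2 CPM at least 1), the 3 most abundant genes of each pathway list and Col4a3, plus single genes whose naming is explained. Some genes of the lists are not reported here. Counts were simulated with 200 changed genes, all above 1 CPM on average and as many raised as lowered. Of these, edgeR recovered 95% for Veh versus WT (17230 genes), 96% for Anti-miR-21 versus Veh (17242 genes) and 94% for ACEi versus Veh (17291 genes). Unchanged genes made up 6.40%, 4% and 6.47% of the calls. In the data 73.0% of genes were called in Veh versus WT, and recovery and scaling under such wide change were not tested. Coding sequences and promoters were aligned with MAFFT 7.526. Transcript windows came from GENCODE M21. The closest pair of libraries of a group differed by a chi-square of 14.2 per degree of freedom, so none was counted as deposited more than once. The members and gene lists were chosen with earlier results of these data known.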

Additional observations from a re-analysis of the deposited data

Results flagged for a closer look

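Of 36 sets of values (levels and shares of the members and their sum in the WT, Veh and Anti-miR-21 groups), 6 held 1 mouse farther from its group than a Dixon test allows, and chance flags about 1 in 20 sets. Veh mouse A20, 1 of the lane 1 libraries, accounted for 4 of them. It had 6.91 CPM of Serpina1c, where the next Veh mouse had 1.63, and 7.62 CPM of Serpina1e, where the next had 0.249. The same mouse had shares of 7.03% for Serpina1c and 7.74% for Serpina1e in the summed counts of Serpina1a to Serpina1e. Veh mouse A16 had 67.0 CPM of Serpina1f, above the next Veh mouse at 47.6. Anti-miR-21 mouse A8 was low in the sum of Serpina1a to Serpina1e, at 165.5 CPM, where the next had 195.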

How the results depend on the processing

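The lower sum of Serpina1a to Serpina1e in Veh than in WT and its rise in Anti-miR-21 kept direction and call under every alternative run, as did Serpina1a, Serpina1d and Serpina1f in both comparisons. The rise of the sum in ACEi over Veh was less firm: it missed the threshold within flow cell B (0.33), with only those groups fitted (1.06, adjusted p = 0.0656) and without the 5 libraries with at least 30 Ahsg counts (1.25, 1 ACEi mouse left, assumed to vary like the others), and ranged from 0.91 to 1.33 as each mouse was left out. The sum in ACEi versus WT was called lower within flow cell B (-0.80) and with only those groups fitted (-0.52), and it ranged from -0.68 to -0.47 with each mouse left out. The sum in Anti-miR-21 versus WT ranged from -0.0861 to 0.13 with each mouse left out. The untested difference of the sum between Anti-miR-21 and ACEi was 0.91 in the fit that held flow cell, 0.48 on log2(FPKM + 1) and 0.48 on log2(FPKM + 0.1).

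Members called in ACEi versus Veh, beside the share of all genes called, numbered 1 with library totals (52.8%), 0 within flow cell B (edgeR, 7.35%), 1 with only those groups fitted (41.4%), 1 with limma at each pseudocount (54.6% and 52.3%), 5 without the lane 1 libraries (41.5%) and 1 without the 5 Ahsg libraries (13.4%). They numbered 3 with the DESeq2 Wald test (42.7%), no filter (23.7%) and at least 10 counts in every mouse (47.0%), and 2 to 5 with each mouse left out. In Anti-miR-21 versus WT they numbered 3 with library totals (49.5%), 0 with at least 10 counts in every mouse (46.3%), 0 within flow cell A (29.7%), 2 and 3 with limma at pseudocounts of 1 and 0.1 (44.5% and 47.0%), and 0 without the lane 1 (36.7%) or the 5 Ahsg libraries (32.1%). In ACEi versus WT they numbered 1 with library totals (53.1%), 1 with limma at each pseudocount (49.1% and 51.1%), 1 without the lane 1 libraries (43.0%), 0 without the 5 Ahsg libraries (20.5%), and 1 to 2 with each mouse left out. Shares that passed for Veh versus WT numbered 0 without the lane 1 libraries. With each mouse left out, they numbered 0 to 3 for Veh versus WT, 1 to 3 for Anti-miR-21 versus Veh and 0 to 1 for ACEi versus Veh.

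Signs turned for differences that were not called, and for Serpina1e in Anti-miR-21 versus Veh, which was called lower (-3.43). Serpina1d in Anti-miR-21 versus WT was 0.0873 with library totals, 0.0955 when flow cell was a term, 0.0367 within flow cell A, 0.12 and 0.13 on FPKM with pseudocounts of 1 and 0.1, 0.0159 without the lane 1 libraries and 0.00948 without the 5 Ahsg libraries. Serpina1b in ACEi versus WT was 0.0934 with library totals, 0.14 and 0.15 on FPKM and 0.19 without the 5 Ahsg libraries. Serpina1e in ACEi versus Veh was 0.71 when flow cell was a term, 0.21 and 0.92 on FPKM, and 3.12 without the lane 1 libraries, and ranged from -0.82 to 3.14 with each mouse left out. Serpina1e was 0.21 in Anti-miR-21 versus Veh within flow cell A and 1.56 in ACEi versus WT without the lane 1 libraries. Serpina1c in ACEi versus Veh was -0.40 within flow cell B and ranged from -0.0190 to 1.86 with each mouse left out. Serpina1f and Serpina1b in Anti-miR-21 versus WT ranged from -0.0010 to 0.12 and from -0.0649 to 0.23. The cause was not tested. No paired analysis was possible because the replicate numbers follow accession order and pair no mice. The alternatives without the lane 1 or Ahsg libraries were chosen after seeing the data. With 3 ACEi mice, precision for that group is limited.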
